A study of Homo sapiens with 2 samples.

Results

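The genes examined here encode receptors through which hematopoietic cells take up growth signals and iron: EPOR, KIT, FLT3, CSF3R, CSF2RB, CSF1R and TFRC. Their probes were found by symbol in the annotation column of the arrays, by a rule that used no measured value, although earlier results of these data were known when the genes were chosen. They are 7 of the 17279 genes annotated on the arrays. The probes annotated to them with a distance to the transcription start number 186 of 474411. Binding of the transcription factor GATA1 near them was measured by ChIP-on-chip (chromatin immunoprecipitation read on microarrays) in untreated Meg-01 cells, a human megakaryoblastic leukemia line grown in culture. Sonicated chromatin from fixed cells was precipitated either with the C-20 antibody against GATA1 (the IP) or with normal goat IgG (the background), and both were amplified through ligated linkers. The IP carried Cy5 and the IgG Cy3, and both were hybridized together to a promoter set of 2 arrays, called chIP1 and chIP2 after their titles. The arrays hold different probes, so each probe has 1 value, without a replicate or a dye swap. No test was therefore possible, and every comparison below describes 1 hybridization of 1 cell line, whose precision is limited by the number of arrays. Whether these genes were expressed in the cells was not measured by these arrays.

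GATA1 is a zinc finger protein that binds GATA letters in DNA and directs the red cell and megakaryocyte lineages. Blood progenitors survive and divide under soluble factors whose receptors fall into families. Cytokine receptors such as EPOR, CSF3R and CSF2RB have no kinase of their own and signal through JAK kinases bound to them, whereas KIT, FLT3 and CSF1R are receptor tyrosine kinases that phosphorylate themselves when ligand joins their chains. TFRC is not a growth factor receptor but carries iron-loaded transferrin into the cell, and red cell precursors need it to make heme. EPOR has long been known as a GATA1 target of the red cell lineage, and KIT as a gene at which GATA1 takes the place of GATA2 when red cell precursors mature.

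The letters at the starts of 3 of the genes are shown because the ChIP values below are described by distance from these starts. RefSeq promoter sequences (build GRCh38.p14) were matched by symbol for 6 of the 7 genes, with 8 starts in all, and the 250 bases before each start were searched. CSF2RB was not in the table. The GATA letters searched were AGATAA or the like with a changed end, namely AGATAG, or with a changed first letter, namely TGATAA or, with both changes, TGATAG. Both strands were searched and overlaps with other motifs were allowed. They are in capitals in the sequences, which are written 5′ to 3′ on the strand of the gene and end at the base before the start. EPOR is shown because its highest window lay just upstream of the start, KIT because its values changed side near the start, and CSF1R because it has a pair of starts that the array covered separately. The EPOR sequence lies at chr19:11384315-11384564 (minus strand) and the KIT sequence at chr4:54657707-54657956 (plus strand). The upstream CSF1R start has chr5:150113366-150113615 and the downstream start chr5:150086555-150086804 (minus strand).
EPOR: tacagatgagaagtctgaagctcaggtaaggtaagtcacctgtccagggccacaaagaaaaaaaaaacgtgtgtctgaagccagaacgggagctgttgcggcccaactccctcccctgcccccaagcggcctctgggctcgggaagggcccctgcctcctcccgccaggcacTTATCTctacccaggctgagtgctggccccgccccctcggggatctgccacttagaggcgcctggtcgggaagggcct
KIT: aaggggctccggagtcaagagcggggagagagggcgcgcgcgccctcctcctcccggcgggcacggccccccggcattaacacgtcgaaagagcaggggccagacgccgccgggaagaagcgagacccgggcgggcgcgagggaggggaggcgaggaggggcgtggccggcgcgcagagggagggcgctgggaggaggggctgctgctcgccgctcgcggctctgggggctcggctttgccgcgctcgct
CSF1R, upstream start: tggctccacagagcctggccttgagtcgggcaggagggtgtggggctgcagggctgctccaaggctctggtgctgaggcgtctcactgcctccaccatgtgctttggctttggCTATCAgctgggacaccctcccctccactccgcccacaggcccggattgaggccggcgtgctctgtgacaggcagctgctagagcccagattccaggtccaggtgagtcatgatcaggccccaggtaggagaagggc
CSF1R, downstream start: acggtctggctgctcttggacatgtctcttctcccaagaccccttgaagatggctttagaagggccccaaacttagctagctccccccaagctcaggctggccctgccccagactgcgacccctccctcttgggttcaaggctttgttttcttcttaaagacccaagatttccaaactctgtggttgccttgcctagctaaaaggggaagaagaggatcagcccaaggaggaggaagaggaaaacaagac
Of the 8 sequences, 2 held GATA letters, and 22.3% of the 35116 promoters in the table held them in the same 250 bases. In EPOR they are TTATCT at -78 to -73, counted from the start, and in the upstream CSF1R sequence CTATCA at -137 to -132. The KIT sequence held none of these letters and had a GC content of 76.4%, against 62% for EPOR. The downstream CSF1R sequence held TGTGGT, the letters read by RUNX factors, at -71 to -66, and 11.0% of all promoters held these on either strand. A match to letters is a description of the sequence and does not show a bound site.

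Each probe was given as log2 of the processed IP signal over the processed IgG signal, with the median of its array set to 0. Values were then averaged over 3 adjacent probes, the outer ones no more than 1000 bp from the central one. Such windows were called enriched where their average reached 1, that is 2-fold toward the IP, and IgG-side where it reached -1 or lower. Distances are from the transcription start in the annotation of the array, negative upstream. All 186 probes passed the filters and were well above background in both channels, 126 on chIP1 and 60 on chIP2. They made 157 windows, from 11 at FLT3 to 46 at CSF3R. Coordinates in the following paragraphs are those of the deposited files, whose genome build is not given in the sources used here, and they must not be read against the GRCh38 positions above. Exon and intron positions on that build were not used here, so a position is described only as promoter or inside a gene, as the array has it. Median raw signals of all probes were 543 and 544 in the IP channel and 412 and 440 in the IgG channel of chIP1 and chIP2. The negative control spots had 342 and 340 in the IP channel and 303 on both arrays in the IgG channel. Over all kept probes the SD of log2(IP/IgG) was 0.97 on each array.

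Of the 7 genes, 1 had an enriched window, CSF2RB, against 57.1% of all 17054 genes that had a window. An IgG-side window was present in 3 genes, KIT, CSF3R and TFRC, against 52.9% of all genes. Among the 14418 genes with as many windows as these (11 to 46), 58.7% had an enriched window and 55.2% an IgG-side window. In 1 of 157 windows (0.637%) the mean was at least 1, against 7.62% of all 415403 windows. In 9 windows (5.73%) it was at most -1, against 9.65% of all windows. Single probes followed the same order but lay much closer to the arrays as a whole. Of 186 probes, 19 were at or above 1, against 11.8% of all probes, and 21 at or below -1, against 14.4%. The receptor loci thus held smaller shares of windows past 2-fold on both sides than the arrays as a whole. The SD of their window means was 0.56, against 0.76 for all windows. The highest windows of the 7 genes ran from 0.69 to 1.05 with a median of 0.93, against a median of 1.09 for all genes. The lowest of the 7 passed 1.5-fold, as 85% of all genes did, and none passed 3-fold, as 20.6% of all genes did. All 7 fell below the middle of the genes on their array, between the 18.6th and the 48.9th percentile. The lowest windows had a median of -0.84, against -1.05 for all genes. Windows above 0 made up 58.6% (92 of 157), against 51.2% of all windows.

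**Figure D1:**
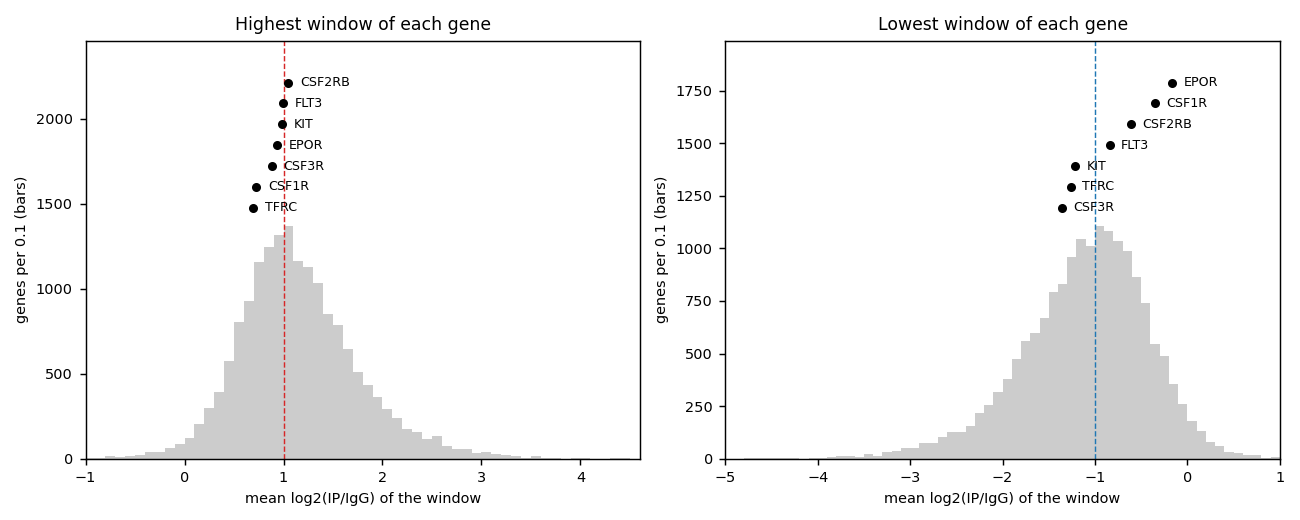
Highest (left) and lowest (right) 3-probe window of each gene, as mean log2(IP/IgG) on the horizontal axis, for all genes with a window (gray bars, genes per 0.1) and for the 7 receptor genes (black points, set above the bars, with a height that carries no value). Dashed lines mark 1 and -1. The highest windows of the 7 genes lie between 0.69 and 1.05, around and below the middle of all genes, and their lowest windows between -1.36 and -0.16.

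Among the cytokine receptors, EPOR, the receptor of erythropoietin, had 18 probes from -3126 to 2597 bp on chromosome 19 (11353400 to 11359175, minus strand, chIP2). Its highest window was at the promoter, centered at -263 (11356132 to 11356818), where the probes had log2(IP/IgG) of 1.02, 0.95 and 0.83 and a mean of 0.93. The probe at -135 gave a processed signal of 3949 in the IP and 1932 in the IgG. All 3 probes were thus on the IP side by similar amounts, and the mean stood at 1.91-fold, below the 2-fold limit. Window means fell to -0.16 at 394 and were 0.02 to 0.38 from 606 to 1491 bp downstream. EPOR had the most even probe values of the 7 genes, with CSF1R next (SD 0.54). Of the 18 EPOR probes, 15 were above 0, with a mean of 0.43 and an SD of 0.42. This mean was higher than that of 91.8% of the genes on its array. The lowest EPOR window, -0.16, was likewise higher than the lowest window of 93.0% of genes, and that of CSF1R was at the 90.2nd percentile. No EPOR window was centered more than 500 bp upstream. Beyond 2000 bp upstream, 14.8% of all windows were IgG-side. The highest EPOR window, by contrast, was at the 40.3rd percentile. Its windows within 500 bp of the start had a median of 0.24, against 0.26 for all windows at this distance. The highest single probe, 1.25, lay at 2597, the downstream end of the probes. Of the EPOR probes, 4 are also annotated to RGL3, at 31859 to 34850 bp from its start, and 3 to SWSAP1, at 9772 to 10406 bp from its start.

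CSF2RB, the common beta chain of the receptors for IL-3, IL-5 and GM-CSF, held the single enriched window of the 7 genes. It lay at the far upstream end of the 25 CSF2RB probes, centered at -4845, on chromosome 22 (35637652 to 35638028, plus strand, chIP2), within what the array annotates as promoter. Its probes had 0.87, 1.00 and 1.27, with a mean of 1.05 (2.07-fold). The processed signals averaged 1017 in the IP and 490 in the IgG. The next probe, at -4568, had 0.01, so the signal was bounded on the side of the gene, and no window of any gene lay within 5 kb beyond it on the other side. Even so, this window stood at the 48.9th percentile among the highest windows of the genes on its array. Nearer the gene, windows within 500 bp of the start had a median of -0.30, with 2 of 6 above 0, against 70.4% of all windows at this distance. Further rises reached 0.77 at -1525 and 0.65 at 750. The lowest window was -0.61 at -2962. The CSF2RB call was sensitive to the background correction and to the window size: its highest window was 0.87 with normexp background correction and 0.51 in windows of 5 probes.

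CSF3R, the receptor of the granulocyte factor G-CSF, was covered more broadly, by 53 probes from -5415 to 16741 bp on chromosome 1 (36600839 to 36623045, minus strand, chIP1). Its highest window, 0.88, was centered at -4172 (36621570 to 36621903), with probes at 1.13, 1.17 and 0.34. At the start itself windows were on the IP side without passing 2-fold, with 0.73 at -69 and 0.62 at 44, and 7 of the 8 windows within 500 bp were above 0. Of all windows at this distance, 70.4% were above 0. The highest CSF3R probe, 2.38 at -2773, was the center of no window, since its upstream neighbor lay more than 1000 bp away, and it entered only the window at -1914, whose mean was 0.29. In windows of 5 probes the highest CSF3R value was 1.17, above 2-fold. That window took in the probe of 2.38, with the others at 1.13, 1.17, 0.34 and 0.81. The clearest departure from 0 at this gene was toward the IgG. Inside the gene, 5 adjacent windows from 13386 to 14018 bp downstream had means of at most -1, the lowest -1.36 at 13633 (36603826 to 36604124). The probes at their centers read -1.25, -1.46, -1.34, -1.27 and -1.40, and the outer probes of the stretch, at 14552 and 13218, read -0.33 and -0.70. The brightest of the 5 center probes, at 13751, had a processed signal of 1180 in the IP and 3249 in the IgG. This IgG-side stretch covered 1379 bp (36603028 to 36604406) and held the most windows past 2-fold on either side at the 7 genes. With normexp background correction the lowest CSF3R window was -1.002, and it was the 1 IgG-side window of the 7 genes, so that the run of 5 was no longer called. Further into the gene, values had returned to the IP side, with a window of 0.86 at 16134.

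**Figure D2:**
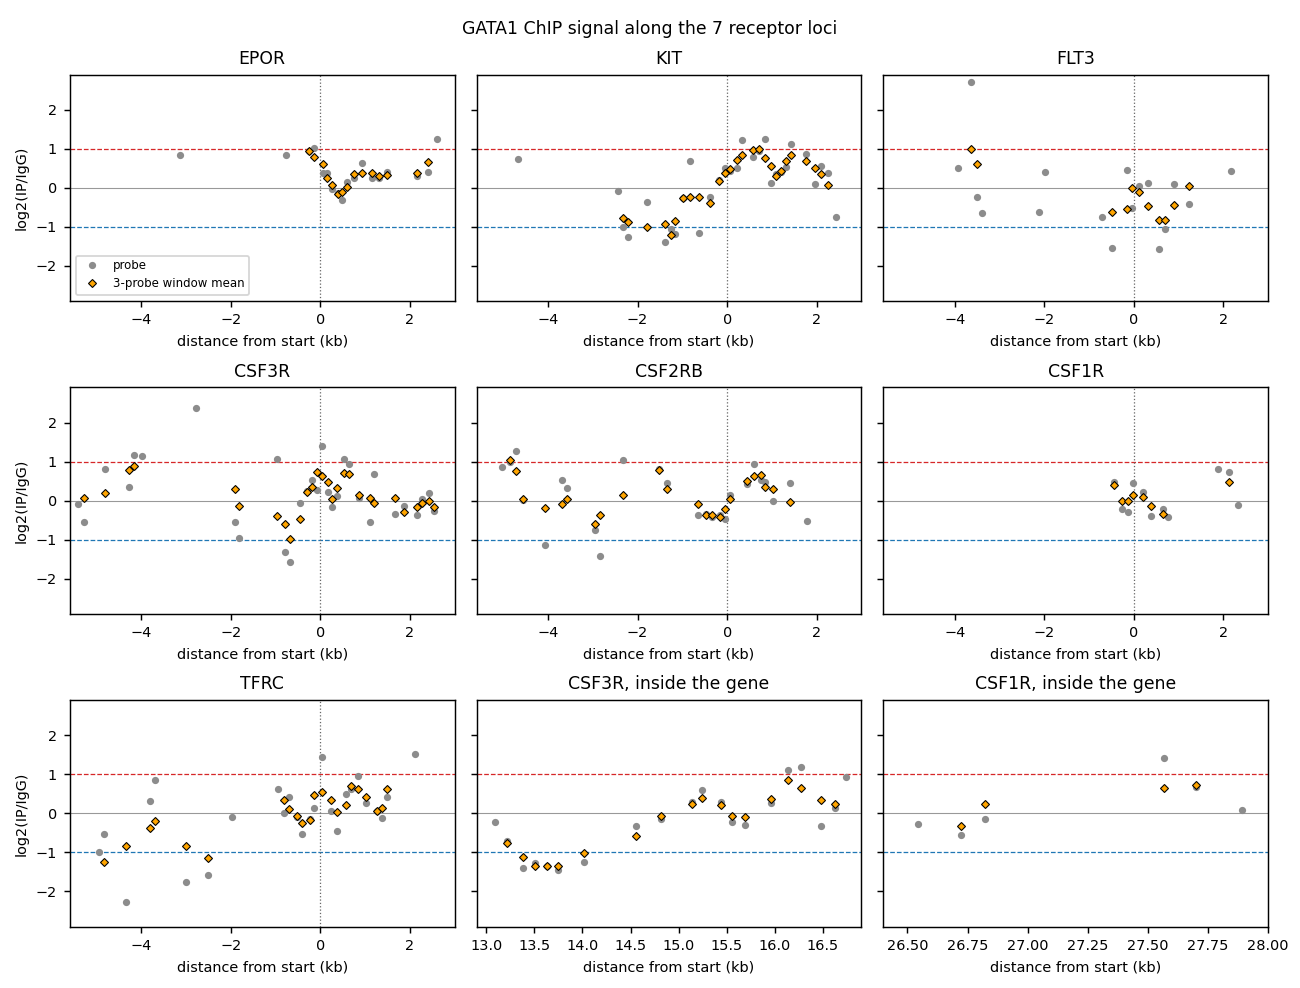
log2(IP/IgG) of each probe (gray circles) and of each 3-probe window at its center (orange diamonds) against distance from the transcription start in kb, one panel per gene, with the downstream probes of CSF3R and CSF1R in panels of their own. Dashed red and blue lines mark 1 and -1. KIT windows lie below 0 from -2328 to -376 and above 0 from -176 on, EPOR windows lie mostly above 0, and the CSF3R windows from 13386 to 14018 bp lie at or below -1.

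Among the receptor tyrosine kinases, KIT, the receptor of stem cell factor, had the most ordered profile of windows. It was covered by 30 probes from -4663 to 2437 bp on chromosome 4 (55360400 to 55367554, plus strand, chIP1). All 9 windows centered more than 500 bp upstream were below 0, and all 12 windows more than 500 bp downstream were above 0. Of all windows, 49.4% were above 0 from 2000 to 500 bp upstream and 51.7% from 500 to 2000 bp downstream. Single upstream probes were not all below 0. The farthest, at -4663, had 0.73 and entered no window, since the next probe lay more than 1000 bp away, and the probe at -839 had 0.67. The 7 windows from 2000 to 500 bp upstream had a median of -0.84 and ranged from -1.21 to -0.24. The 6 windows within 500 bp had a median of 0.43, and the 10 windows from 500 to 2000 bp downstream had a median of 0.69, ranging from 0.29 to 0.99. The KIT profile thus passed from the IgG side to the IP side between the windows at -376 (-0.40) and -176 (0.16). At the lowest window, centered at -1264 (55363659 to 55363954), the probes had -1.38, -1.06 and -1.20. Together with the window at -1797 it formed an IgG-side stretch of 1119 bp (55362836 to 55363954). The window at -1797 barely reached the limit, with a mean of -1.002 and a central probe of -0.36. Between these windows, the one at -1400 had -0.93 and was not called. The probe at -1264 had 518 in the IP and 1083 in the IgG. At the highest window, centered at 704 inside the gene (55365650 to 55365947), the probes had 0.78, 0.94 and 1.24 with a mean of 0.99, or 1.98-fold. The central probe there gave 4658 in the IP and 2432 in the IgG. Probe brightness differed between the ends of this profile. The highest window averaged the 75.0th percentile of intensity on its array and the lowest the 43.4th. With normexp background correction the lowest window rose to -0.81 and no longer passed 2-fold, whereas the highest was 0.99. The part of probe brightness in the KIT profile was not tested.

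FLT3, the receptor of FLT3 ligand on early progenitors, was read by the dimmest probes of the 7 genes. Its 17 probes lay from -3927 to 2170 bp on chromosome 13 (27570504 to 27576660, minus strand, chIP2), and their median intensity was at the 19.5th percentile of the array, against the 84.0th for EPOR. The highest window, 0.99 at -3633 (27576174 to 27576660), rested on 1 probe: its values were -0.23, 2.70 and 0.50. That probe had a processed signal of 593 in the IP and 90.7 in the IgG. With normexp background correction, the highest FLT3 window was 0.05, and in 5-probe windows it was 0.34. Close to the start FLT3 was on the IgG side of 0 without passing 2-fold. All 5 windows within 500 bp were below 0, with a median of -0.46, whereas the median over all windows at such distances was 0.26 and 70.4% of them were above 0. The lowest window was -0.84 at 690, with probes at 0.10, -1.05 and -1.57. Only 3 of the 11 FLT3 windows were above 0, the smallest share of the 7 genes.

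CSF1R, the receptor of the macrophage factor M-CSF, was covered by 17 probes in separate clusters, near the start and from 26546 to 27892 bp downstream of it, on chromosome 5 (149445211 to 149473592, minus strand, chIP1). RefSeq gives CSF1R a pair of starts that are 26811 bp apart in GRCh38. At the upstream start, whose promoter held GATA letters, the signal was flat: the 6 windows within 500 bp ran from -0.13 to 0.39 with a median of 0.04. The highest window, 0.73, was in the downstream cluster at 27698 (149445211 to 149445589), with probes at 0.09, 0.67 and 1.42. The lowest was -0.35 at 652. None of the 17 probes was at or below -1, and 1 was at or above 1. The probes reached no farther upstream than -442, and windows beyond are given below with PDGFRB. The 4 promoter probes of CSF1R are also annotated to PDGFRB, the neighboring receptor kinase, at 42045 to 42468 bp from its start.

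TFRC, the transferrin receptor, had 26 probes from -4938 to 2105 bp on chromosome 3 (197295117 to 197302219, minus strand, chIP1). Its highest window, 0.69 at 678 inside the gene (197296383 to 197296705), was the lowest of the 7 highest windows, with probes at 0.97, 0.62 and 0.49. It was also read by the brightest probes of the 7, at the 89.4th intensity percentile, with averages of 3901 in the IP and 2420 in the IgG. All 7 windows from 500 to 2000 bp downstream were above 0, with a median of 0.43, and 51.7% of all windows at this distance were above 0. Farther upstream the order was the opposite. Beyond 2000 bp upstream, where 40.7% of all windows were above 0, all 6 TFRC windows were below 0, with a median of -0.83. In 2 of them the mean passed -1, with -1.26 at -4834 (197301576 to 197302219) and -1.14 at -2500 (197299201 to 197300275). The first of these rested largely on 1 probe, its values being -2.27, -0.52 and -0.98. With normexp background correction the lowest TFRC window was -0.80, and in 5-probe windows -0.89. TFRC and KIT thus both had windows below 0 beyond 2000 bp upstream and above 0 from 500 to 2000 bp downstream, although TFRC, unlike KIT, had 2 of 3 windows above 0 from 2000 to 500 bp upstream.

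Signal on these arrays varied with distance to the start at all genes, and the receptor genes were set beside that trend. Over both arrays, windows within 500 bp of a start had a median of 0.26, and those beyond 2000 bp upstream a median of -0.18. At the receptor genes the 44 windows within 500 bp had a median of 0.08 and ranged from -0.61 to 0.93, so that none passed 2-fold, while 10.4% of all windows at this distance were enriched and 4.13% IgG-side. The 40 windows from 500 to 2000 bp downstream had a median of 0.34, against 0.03 for all windows, and 33 of the 40 were above 0, against 51.7% of all windows there. The genes differed here, since the median of this distance group was the highest of the gene's own groups at KIT, CSF2RB and TFRC, while those of FLT3 (-0.64) and CSF1R (-0.35, from 1 window) were below 0. From 2000 to 500 bp upstream the 18 windows had a median of -0.24, against -0.01 for all, with 7 of them from KIT. Beyond 2000 bp upstream, 23 windows had a median of -0.09, with 1 enriched and 2 IgG-side, against 6.57% and 14.8% of all windows there. Beyond 2000 bp downstream, 31 windows, 22 of them from CSF3R, had a median of 0.07, with 5 IgG-side, all at CSF3R, against 11.3% of all windows there. A CSF1R window had its center on a probe with no distance to CSF1R and is in none of these groups. Windows of 1 gene overlap and share probes, so they are not independent. After the trend on distance was removed from each array, 3 of the 7 genes had an enriched window, CSF2RB (1.25), FLT3 (1.18) and CSF3R (1.10), against 55.2% of all genes, and the highest EPOR window was 0.77.

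**Figure D3:**
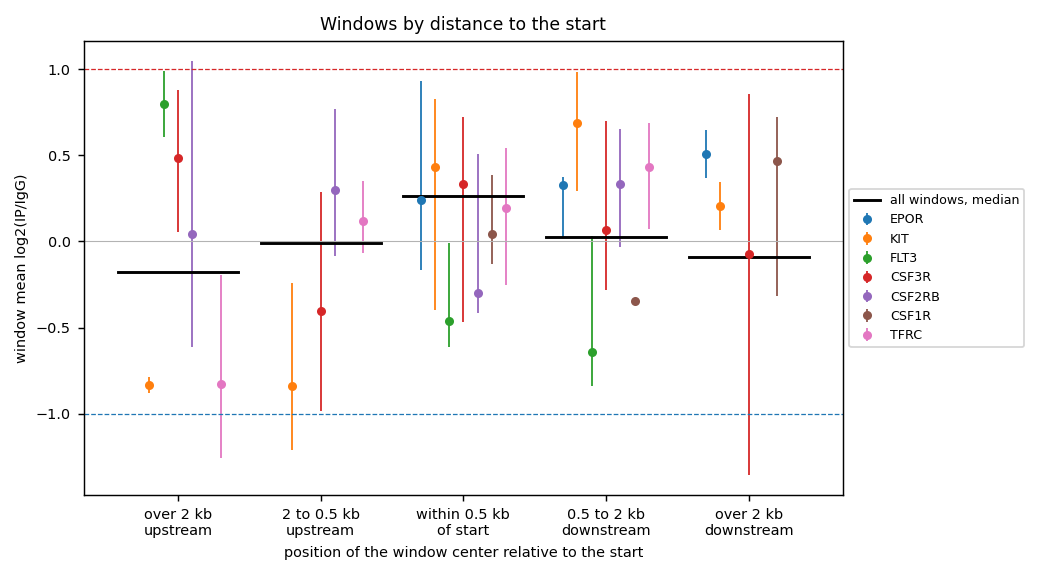
Window means by distance of the window center from the start, in 5 distance groups along the horizontal axis. Points are the median of each gene's windows and vertical lines run from its lowest to its highest window. Black bars are the median of all windows on both arrays, and dashed lines mark 1 and -1. KIT and TFRC sit lowest beyond 2 kb upstream, and FLT3 and CSF2RB, with medians of -0.46 and -0.30, sit lowest within 0.5 kb of the start.

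The 7 genes were also set beside 47 other genes of the same pathways: 25 receptors, 12 ligands and 10 genes of iron uptake and storage. Of these 47, 26 (55.3%) had an enriched window and 24 (51.1%) an IgG-side window, close to the 57.1% and 52.9% of all genes. The highest windows of the 47 had a median of 1.18, against 1.09 for all genes with a window. Of these 47 windows, 25 were higher than that of any of the 7 receptor genes. This count does not set the list apart. The top value of the 7, at CSF2RB, exceeded the highest window of only 48.9% of chIP2 genes, so most genes there also reached it. By kind, enriched windows were present in 17 of 25 receptors, 5 of 12 ligands and 4 of 10 iron genes. The median highest window was 1.54 for the other receptors, 0.93 for the ligands and 0.97 for the iron genes. The values that follow are highest windows, as mean log2(IP/IgG), in the 20 genes with the highest values among the 26. In the iron genes, TF, which encodes transferrin, the protein that TFRC takes up, had 2.86. STEAP3, a reductase of endosomal iron, had 2.17, FTL, the ferritin light chain, had 1.46, and HFE, which binds the transferrin receptor, had 1.33. TF was thus the highest of the 47 genes, while TFRC was the lowest of the 7. In receptors of the cytokine class, GHR had 2.54, PRLR 2.48, IL7R 2.40, LIFR 2.29 and IL2RG 2.25. Lower values were found at IL9R (1.73), IL2RA (1.67), IL11RA (1.59) and IL6R (1.54). The probes of the IL6R window were uneven, from -0.03 to 3.98, as were those of the HFE window, from -0.64 to 3.32. Among receptor kinases of vessels, FLT1 had 2.76, TEK 1.70, FLT4 1.69 and KDR 1.62. Ligands of the LIF and IL-6 family were the highest ligands, with OSM at 1.97, LIF at 1.40 and IL11 at 1.29. The other 6 genes had 1.00 to 1.26. Apart from TF, the ligands of the 7 receptors had lower values, the highest being FLT3LG, the ligand of FLT3, at 1.11. EPO and KITLG, the ligands of EPOR and KIT, had 0.82 and 0.84, and CSF3 and CSF1, the ligands of CSF3R and CSF1R, had 0.59 and 0.50. IL3, CSF2 and IL5, whose receptors use the CSF2RB chain, had 0.97, 0.90 and 0.07.

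Many of the higher list values came from dim probes. Of the 26 genes, 16 had their highest window under the middle of the intensity range, and the median intensity percentile of the 26 windows was 43.7, against 65.4 for the highest windows of the 7 receptor genes. With normexp background correction, 9 of the 26 fell below 1, among them FLT1 (0.67), GHR (0.77) and KDR (0.85). By contrast OSM, TEK and FTL, with intensity percentiles of 89.3, 71.7 and 89.6, had 1.96, 1.63 and 1.49 after the same correction. The part of probe brightness in the difference between these lists was not tested.

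**Figure D4:**
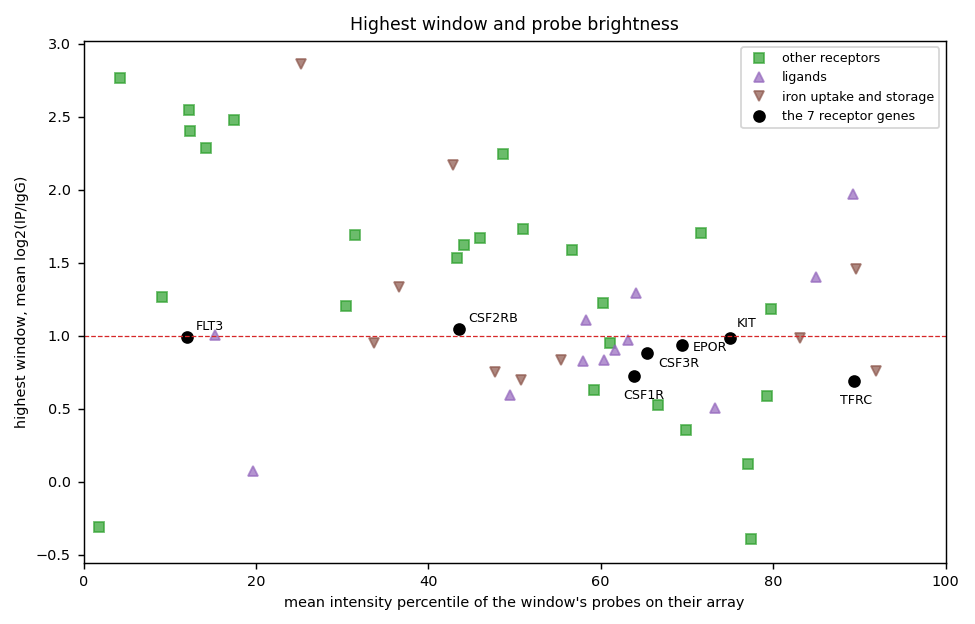
Highest 3-probe window of each gene, as mean log2(IP/IgG), against the mean intensity percentile of its 3 probes on their array, for the 7 receptor genes (black circles), other receptors (green squares), ligands (purple triangles) and iron genes (brown triangles). The dashed line marks 1. The 5 other receptors with the highest values, from LIFR (2.29) to FLT1 (2.76), lie at intensity percentiles of 4.24 to 17.5, whereas 5 of the 7 receptor genes lie at 63.9 or above.

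Some of the 7 genes have a related receptor on the same chromosome, called a neighbor below, whatever the distance. These pairs were looked at after the values had been seen. Over both arrays, 7.62% of all windows were enriched and 9.65% IgG-side. FLT1, 387883 bp from the FLT3 probes, had 6 enriched and 6 IgG-side windows of 39, against none of either in 11 at FLT3. KIT lies between PDGFRA, at 421521 bp, and KDR, at 462856 bp, and these had 3 of 39 and 4 of 24 windows enriched, against none of 27 at KIT, with highest values of 1.22 and 1.62 against 0.99 at KIT. IgG-side windows numbered 2 at PDGFRA and 5 at KDR, against 2 at KIT. IL2RB, 223715 bp from the CSF2RB probes, had 2 of 20 windows enriched, up to 1.20, and CSF2RB 1 of 23, at 1.05. PDGFRB, which adjoins CSF1R, had 2 of 52 windows enriched, up to 1.18 (149475107 to 149475715), and CSF1R none of 13. Both enriched windows lay on the upstream side of CSF1R, inside PDGFRB, the highest 1515 bp beyond the last CSF1R probe. The CSF1R probes reached only to -442, so the region farther upstream of its start was read only as PDGFRB. PDGFRB also had 1 IgG-side window, -1.01 in the same region (149473951 to 149474232), while CSF1R, IL2RB and CSF2RB had none. In each of these 5 pairs the neighbor had the higher highest window, over unequal numbers of windows. In 4 of the 5 pairs the probes of that window were dimmer at the neighbor, with intensity percentiles of 4.24 to 60.2, and PDGFRB, at 79.8 against 63.9 for CSF1R, was the exception. With normexp background correction the order of KDR and KIT was reversed, at 0.85 and 0.99. IL2RB and CSF2RB were then close, at 0.90 and 0.87, and the remaining neighbors stayed higher. At the downstream end of CSF3R, a search within 5 kb of its probes, also chosen after values had been seen, found 11 windows, of which 3 were enriched. These reached 1.30 at the start of MRPS15, a mitochondrial ribosome gene (36598667 to 36599140), 1699 bp from the last CSF3R probe. At the upstream end of CSF1R the same search found 18 windows, of which 2 were enriched and 1 IgG-side. These are the PDGFRB windows named above.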

How the data were processed

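DNA from the GATA1 IP and the IgG pull-down of Meg-01 cells was compared on 2 promoter arrays with different probes. The authors deposited the scanner output, made with Agilent Feature Extraction 9.5.3.1 per the file headers. Its processed intensities were background-subtracted with a fitted surface, detrended and dye-normalized, and its mean and background intensities were uncorrected. The deposited value table holds log10 ratios of Cy5 over Cy3, equal to those of the scanner files. In the study, lowess and median normalization preceded peak calling in commercial software, which was not used here.

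Here log2 of the processed IP over IgG intensities was centered on the median of each array. Removal of control spots, non-uniformity outliers and probes that neither channel marked as well above background kept 237004 of 237210 probes on chIP1 and 236864 of 237201 on chIP2. Each gene was described by the highest and the lowest of the windows holding at least 1 of its probes. No tests were run. The window code was tested on simulated data. Python 3.11.15 with pandas 2.3.3 and numpy 2.4.6 was used, with R 4.3.3 and limma 3.58.1 for loess and normexp. The alternatives were loess on intensity (span 0.3), normexp (offset 50), the deposited value table, no filter or a filter on both channels for dim probes, single probes, 5-probe windows (outermost probes within 2000 bp), neighbors within 500 bp, thresholds of 1.5-fold and 3-fold, and removal of the median by distance to the start (steps of 500 bp out to 6000 bp).

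The 7 genes and the lists were chosen with earlier results of these data known. Genes named are the 7, genes that share a probe with them, and up to 20 list genes with an enriched window, by value. The ligands below 2-fold, the neighboring receptors and MRPS15 were named after their values had been seen.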

Additional observations from a re-analysis of the deposited data

How the results depend on the processing

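No paired analysis was possible because each probe was on 1 array only and no test over samples was run. Under the 9 alternatives that give a value for each gene, no highest or lowest window changed sign. Of the 63 highest-window values 51 stayed on their side of 2-fold, and of the 63 lowest-window values 58 did. The deposited value table, both changes to the filter on dim probes and neighbors within 500 bp left the numbers of the 7 genes with an enriched or an IgG-side window unchanged. The both-channel filter and the 500 bp limit left 24 list genes enriched in place of 26. They left 8 and 7 IgG-side windows at the 7 genes in place of 9.

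With loess on intensity, 2 genes and 2 windows were enriched (58.3% of all genes were), FLT3 having 1.09. With the distance trend removed, 3 genes and 3 windows were enriched (55.2% of all genes), FLT3 having 1.18 and CSF3R 1.10. With normexp, 0 genes and 0 windows were enriched (33.1% of all genes) and 1 gene and 1 window were IgG-side (23.9% of all genes), with highest CSF2RB at 0.87 and lowest KIT and TFRC at -0.81 and -0.80. With 5-probe windows, 5 windows in 2 genes were IgG-side, 16 list genes were enriched, CSF2RB had 0.51 and CSF3R 1.17, and the lowest TFRC value was -0.89. The 1 gene enriched in these windows was thus CSF3R, against 34.6% of all genes, with 34.3% of all genes IgG-side. The CSF3R window took in the single probe of 2.38 at -2773.

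With single probes, 7 genes had an enriched probe and 5 an IgG-side probe (19 and 21 probes), and 41 list genes an enriched probe, against 86.1% and 81.1% of all genes with an enriched and an IgG-side probe. The highest probes were 1.42 for CSF1R, 1.27 for CSF2RB, 2.38 for CSF3R, 1.25 for EPOR, 2.70 for FLT3, 1.24 for KIT and 1.52 for TFRC, with a median of 1.42, and the lowest of CSF2RB and FLT3 were -1.43 and -1.57. At 1.5-fold, 7 genes (32 windows) were enriched, 5 genes (22 windows) IgG-side and 40 list genes enriched, with 85% of all genes enriched and 78.4% IgG-side. At 3-fold, 0 genes (0 windows) were on either side, with 15 list genes enriched, against 20.6% of all genes enriched and 22.3% IgG-side. The cause of these shifts was not tested. The median raw signals of the FLT3 probes, 410 in the IP and 360 in the IgG, were the lowest of the 7 genes.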
